A study of Mus musculus with 24 samples.

Results

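Slit and netrin proteins are secreted guidance cues that were first described in the growing nervous system. Slits bind Roundabout (Robo) receptors, whereas netrin-1 binds neogenin, Dcc and the Unc5 receptors. In pancreatic islets, Slit-Robo signaling is known for its part in β cell survival and islet architecture, and Unc5 receptors are known as dependence receptors, which favor cell death when their ligand is absent. The 9 genes described here encode the ligands Slit1, Slit2, Slit3 and netrin-1 (Ntn1) and the receptors Robo1, Robo2, neogenin (Neo1), Unc5a and Unc5b. They were taken by symbol from a table of 17696 mouse genes. They were chosen by a readout of these data, the near absence of Slit1 counts in one of the cell lines, named OE.

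The cells were MIN6, mouse insulinoma cells that serve as a model of β cells, stably transduced with lentiviral vectors and grown from single clones that had been screened for their level of the microRNA miR-146a-5p. Scr cells carried a scrambled sequence, ZIP cells an antisense sequence against miR-146a-5p and OE cells a vector overexpressing miR-146a-5p. Each line was left untreated or exposed for 24 h to cytokines (Scr+Cy, ZIP+Cy and OE+Cy), with 4 RNA-seq libraries in each of the 6 groups. The cytokines were IFNγ at 100 ng/ml, TNFα at 10 ng/ml and IL-1β at 5 ng/ml. The Scr and ZIP vectors shared a backbone with a copGFP reporter, whereas the OE vector was of another make with a TurboRFP reporter. The effect of the microRNA, that of the vector and that of the clone therefore cannot be told apart between lines. None of the libraries came from untransduced cells. A difference between lines, even where worded as a rise or fall, therefore does not show which line changed. Nothing in the labels says that the 4 libraries of a group came from separate cultures, so p values measure the spread between these libraries, which may be technical. In the sample titles, libraries that share a replicate number also share a tag across all 6 groups, and its meaning is not given. By qRT-PCR in untreated cells, the authors reported miR-146a-5p as higher in OE than in Scr and as unchanged in ZIP. The microRNA itself was not analysed here, and the lines were not checked against its level. Its mature sequence in RefSeq (GRCm38.p6, chr11:43374435-43374456, minus strand) is shown because it is what the lines were made to change, with the seed, bases 2 to 8, in capitals.
miR-146a-5p: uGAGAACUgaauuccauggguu

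Depth ranged from 26657795 to 37168207 assigned reads per library (median 30701018). Levels are given as CPM, the read count of a gene scaled to a common library size with TMM factors, and as mean ± SD of 4 libraries. Genes were called where the change was 1.5-fold or more and the unadjusted p value was under 0.05, and p values adjusted by Benjamini-Hochberg over all 17696 genes are printed as adjusted p. The 10 β cell markers checked were present in every group, with a summed level of 25913 to 52613 CPM. Single markers differed between the untreated lines. Ins1, Ins2, Iapp, Slc2a2 and Slc30a8 were higher in OE than in Scr, Pdx1, Nkx6-1, Mafa and G6pc2 were lower, and Chga overlapped. Ins1 was at 528 to 811 CPM in Scr and 6737 to 8709 CPM in OE. Of other islet cell markers, Gcg was lower in OE (38.2 to 44.2 against 246 to 369 CPM), whereas Ppy, Irx2 and Sst were higher. Replicate 1 of Scr, ZIP and Scr+Cy stood apart. Of 7 fibroblast markers, 5 (Col1a1, Col1a2, Col3a1, Dcn and Lum) were at 1 CPM or more and at least 5 times the mean of the other libraries of the group in each of these 3 libraries. The summed level of all 7 was 19.2, 54.8 and 58.7 CPM, against at most 3.97, 7.95 and 3.51 CPM in the other 3 libraries of each group. Of 6 Schwann cell markers, 2, 4 and 4 passed the same limits in these 3 libraries. Outside them, OE replicate 1 passed for Col1a1 and Col3a1. Its 7 fibroblast markers summed to 4.11 CPM, against at most 1.47 CPM in the other OE libraries. ZIP+Cy replicate 3 passed for Col1a1 only. In OE and OE+Cy, the Schwann cell markers summed to 81.1 to 95.4 CPM, against 45.4 to 58.2 CPM in the Scr and ZIP lines outside these 3 libraries. Mbp made up 74.0 to 85.9 CPM of the sum in OE and OE+Cy, where Sox10 and S100b were at most 0.151 and 0.423 CPM and Foxd3 (0.0276 to 0.327 CPM) was lower than in Scr (1.13 to 1.65 CPM). Of 4 acinar and duct markers, Krt19 was at 12.4 to 24.2 CPM in OE and OE+Cy and at 0 in all other libraries, and Cela1 and Sox9 were at 0 in OE and OE+Cy. The part of other cells in the values of the OE line was not tested. In bulk RNA, fewer cells of a type and less RNA per cell cannot be told apart. Results are given without these 3 libraries where their removal changed a call.

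Slit1 was by length the most abundant of the 9 genes in Scr cells and far lower in both other lines, close to absent in OE. It lies on the minus strand of chromosome 19 (mm10, chr19:41600257-41743856). In Scr, the 4 libraries held 483, 446, 472 and 445 CPM. In OE, they held 0.876, 2.18, 1.49 and 2.13 CPM, from 29 to 80 reads each. The groups did not overlap, and the OE mean (1.67 ± 0.613 CPM) was 0.361% of the Scr mean (462 ± 19.0 CPM). This contrast served to choose the genes and is given as a description only. Its log2 fold change of −8.11 ranked 3 from the lowest of 17696 genes.

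The ZIP line, made with the opposite intent to OE, also held far less Slit1 than Scr. Its libraries held 6.40, 7.40, 10.3 and 12.8 CPM, all far below the lowest Scr library. The mean of 9.22 ± 2.90 CPM was 2.00% of that in Scr (log2 fold change −5.64 ± 0.22 SE). This value uses the Scr libraries on which the choice of genes rested and is a description, with no test. The cytokine-treated libraries are others, but of the same lines, so their contrast is a description as well. There, Slit1 was at 366 ± 23.3 CPM in Scr+Cy and 5.31 ± 2.40 CPM in ZIP+Cy (log2 fold change −6.10 ± 0.23). The highest ZIP+Cy library (8.48 CPM) was far under the lowest Scr+Cy library (342 CPM). OE+Cy held 0.903 to 1.63 CPM, with a mean of 1.34 ± 0.310 CPM.

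With cytokines, Slit1 fell in ZIP cells, from 9.22 to 5.31 CPM, a change of −0.80 ± 0.23 on the log2 scale (adjusted p = 0.0123), although the libraries of both groups overlapped. The responses in Scr and OE rest on libraries that the choice of genes used and are descriptions. In Scr cells, all 4 treated libraries (342 to 396 CPM) were under the lowest untreated library, with a log2 fold change of −0.33 ± 0.18. In OE cells it was −0.31 ± 0.35, from 26 to 80 reads per library, and no difference between lines is given.

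**Figure D1:**
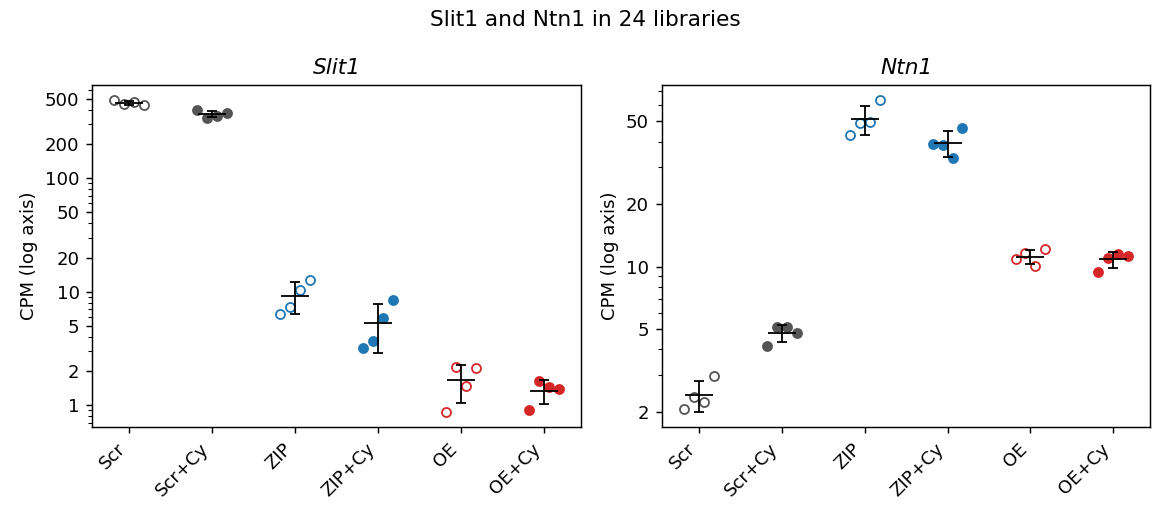
CPM of Slit1 and Ntn1 on log axes in the 24 libraries of 6 groups, with open circles for untreated and filled circles for cytokine-treated libraries, and bars for the mean ± SD. Slit1 was at 342 CPM or more in all Scr and Scr+Cy libraries and at 12.8 CPM or less in all others, whereas Ntn1 was lowest in Scr and highest in ZIP.

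Neither of the other Slits came near the level that Slit1 had in Scr. Slit2, a ligand of the same Robo receptors, stayed low, between 0.269 and 2.85 CPM over all libraries. Its highest values in Scr (1.16 CPM), ZIP (2.85 CPM) and Scr+Cy (2.46 CPM) were each in the replicate 1 library that also held fibroblast and Schwann cell markers, and the part of those cells in these values was not tested. Between lines, Slit2 was not called in ZIP against Scr (log2 fold change 0.62, 95% interval −0.45 to 1.68, adjusted p = 0.438), and the value without the 3 libraries was −0.07. In OE cells, where fibroblast markers summed to no more than 4.11 CPM, Slit2 rose with cytokines. Its 4 untreated libraries held 0.756, 0.925, 0.469 and 0.720 CPM and its 4 treated ones 1.91, 2.57, 1.64 and 1.43 CPM, with no overlap (log2 fold change 1.39 ± 0.53, adjusted p = 0.0365). This call rested on OE+Cy replicate 2, without which the log2 fold change was 1.19 with an unadjusted p of 0.0501. The interaction did not show a response unlike that of Scr (0.61, adjusted p = 0.636). As a description, OE+Cy was not past the limits against Scr+Cy (log2 fold change 0.61), but it was without the 3 libraries with fibroblast markers (1.18).

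Slit3 was hardly detected. Over the 24 libraries, 4 reads or fewer were found per library except in Scr+Cy replicate 1, which had 33 and was among the 3 libraries with fibroblast markers. Scr and OE+Cy had 0 reads in all libraries, which allows up to 3 reads per library. The calls that the model made for Slit3 rest on that library or on differences of at most 4 reads, and they are not read as changes. Slit3 was the only gene of the 9 that failed edgeR's filter on low counts.

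Summed per kilobase of the longest coding transcript, the Slit ligands went from 81.4 ± 3.37 CPM per kb in Scr to 1.74 ± 0.437 in ZIP and 0.373 ± 0.106 in OE. Slit1 made up 99.9% ± 0.0346 of that sum in Scr and 92.4% ± 9.08 in ZIP. In OE its share was 77.2% ± 10.9, and in OE+Cy it was 55.5% ± 8.15, with Slit2 as nearly all of the rest.

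Netrin-1 went the other way. Ntn1, the secreted ligand of neogenin, Dcc and the Unc5 receptors, lies on the minus strand of chromosome 11 (chr11:68209364-68386826). In Scr, its libraries held 2.05, 2.36, 2.22 and 2.97 CPM. In ZIP, they held 43.2, 48.9, 49.7 and 63.1 CPM. There was no overlap, and Ntn1 rose from 2.40 ± 0.402 to 51.2 ± 8.42 CPM, a change of 4.42 ± 0.14 on the log2 scale (adjusted p = 2.20e-17). OE held 10.0 to 12.1 CPM, a mean of 11.2 ± 0.902 CPM that lay between the other lines without overlap, and this value is a description. With cytokines, the order of the lines was the same, with 4.79 ± 0.462 CPM in Scr+Cy, 10.8 ± 0.933 in OE+Cy and 39.3 ± 5.53 in ZIP+Cy. Compared with Scr+Cy, ZIP+Cy was higher in Ntn1 (log2 fold change 3.04 ± 0.12, adjusted p = 6.11e-15). These are other libraries of the same lines, so the difference was not repeated in other clones.

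Cytokines raised Ntn1 in Scr cells and not in the lines where it was already higher. Scr+Cy libraries held 4.13, 5.10, 5.11 and 4.81 CPM, all above the highest Scr library (log2 fold change 1.00 ± 0.15, adjusted p = 1.54e-05). In ZIP cells, the 4 treated libraries held 39.0, 38.4, 33.2 and 46.7 CPM and overlapped the untreated ones (log2 fold change −0.38 ± 0.11, adjusted p = 0.0101, under the fold limit). In OE cells, the log2 fold change was −0.04 (95% interval −0.28 to 0.19, adjusted p = 0.795). The difference between the responses passed the test in both lines. It was −1.38 ± 0.18 in log2 fold change between ZIP and Scr (adjusted p = 8.96e-04) and −1.04 ± 0.19 between OE and Scr (adjusted p = 3.83e-04), and both tests use the same Scr and Scr+Cy libraries. Of 17696 genes, 10 (0.0565%) had a response in ZIP that differed from Scr, 9 of them higher and Ntn1 the only lower gene. The OE interaction was passed by 3537 genes (20%). With the replicate number as a block, 45 genes passed the ZIP interaction, and Ntn1 was among them (adjusted p = 2.96e-05).

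Ntn1 was the only one of the 9 genes with a match to the miR-146a-5p seed. The 7 bases AGTTCTC, the reverse complement of the seed, were searched in the longest 3′ UTR of each gene in GENCODE M21 (GRCm38). The site is shown with its flanks in lower case and starts at base 637 of 3642 of the UTR.
Ntn1 site: agggaggggagAGTTCTCctggggcctg
Such a match was held by 1 of 9 members and by 12.1% of the 15452 genes that had a 3′ UTR, and by 26.8% of the 1936 genes with a UTR of similar length to that of Ntn1. No match was found in the 1212 bases of Slit1. A match is a description and does not show binding. Ntn1 was above its Scr level both in ZIP and in OE, and the part of the microRNA in its level was not tested.

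The Robo receptors were present in all 6 groups and moved little in comparison with their ligands. Robo2 (chr16:73892306-75092770) had 129 ± 8.43 CPM in Scr, 179 in ZIP (153 to 190 CPM) and 119 ± 10.7 in OE, and neighboring Robo1 (chr16:72663149-73046100) had 36.5 ± 3.94, 53.0 ± 4.89 and 42.9 ± 3.70 CPM. In ZIP against Scr neither reached the fold limit, although the groups did not overlap. The log2 fold changes were 0.54 ± 0.10 for Robo1 (adjusted p = 1.49e-04) and 0.47 ± 0.10 for Robo2 (adjusted p = 6.37e-04). Without the 3 libraries with fibroblast markers, Robo1 was past the fold limit, with a log2 fold change of 0.59 (adjusted p = 4.81e-04).

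Robo2 was higher with cytokines in each of the lines. In Scr it rose from a range of 119 to 137 CPM to one of 185 to 205 CPM without overlap (log2 fold change 0.60 ± 0.10, adjusted p = 5.81e-05), a call just past the fold limit. Without Scr replicate 2, Scr+Cy replicate 1 or Scr+Cy replicate 3 it was 0.56, 0.58 and 0.58 and under that limit. In OE, 109 to 132 CPM became 159 to 215 CPM, also without overlap (log2 fold change 0.58 ± 0.10, adjusted p = 2.60e-05), just under the limit. In ZIP the log2 fold change was 0.37 ± 0.10 (adjusted p = 0.00569), with ZIP+Cy replicate 4 at 187 CPM and the other 3 at 245 to 246 CPM. No difference between the responses of Robo2 was shown (adjusted p = 0.849 for ZIP and 0.981 for OE). Robo1 differed in this respect, because its response in OE (log2 fold change −0.29 ± 0.10) was lower than that in Scr (0.23 ± 0.10) by 0.52 ± 0.14 on the log2 scale (adjusted p = 0.00975). OE+Cy libraries held 32.9 to 38.2 CPM of Robo1, all under the lowest OE library of 39.4 CPM.

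Neogenin (Neo1, chr9:58874680-59036441), the netrin and repulsive guidance molecule receptor, varied least of the 9 genes over the 24 libraries (SD of log2 CPM 0.15), with group means between 199 and 255 CPM. It was not called between lines or with cytokines in any comparison. ZIP against Scr gave a log2 fold change of −0.09 (95% interval −0.23 to 0.04). In OE, the treated libraries (236, 272, 268 and 246 CPM) were all above the untreated ones (185, 235, 195 and 180 CPM), by a log2 fold change of 0.36 ± 0.07 (adjusted p = 1.57e-04). That response was larger than the one in Scr by 0.33 ± 0.10 (adjusted p = 0.0222), a test that was no longer passed with only the compared groups in the fit (0.30) or without Scr replicate 3, Scr replicate 4, OE replicate 4, OE+Cy replicate 2 or OE+Cy replicate 3 (0.28 to 0.30).

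**Figure D2:**
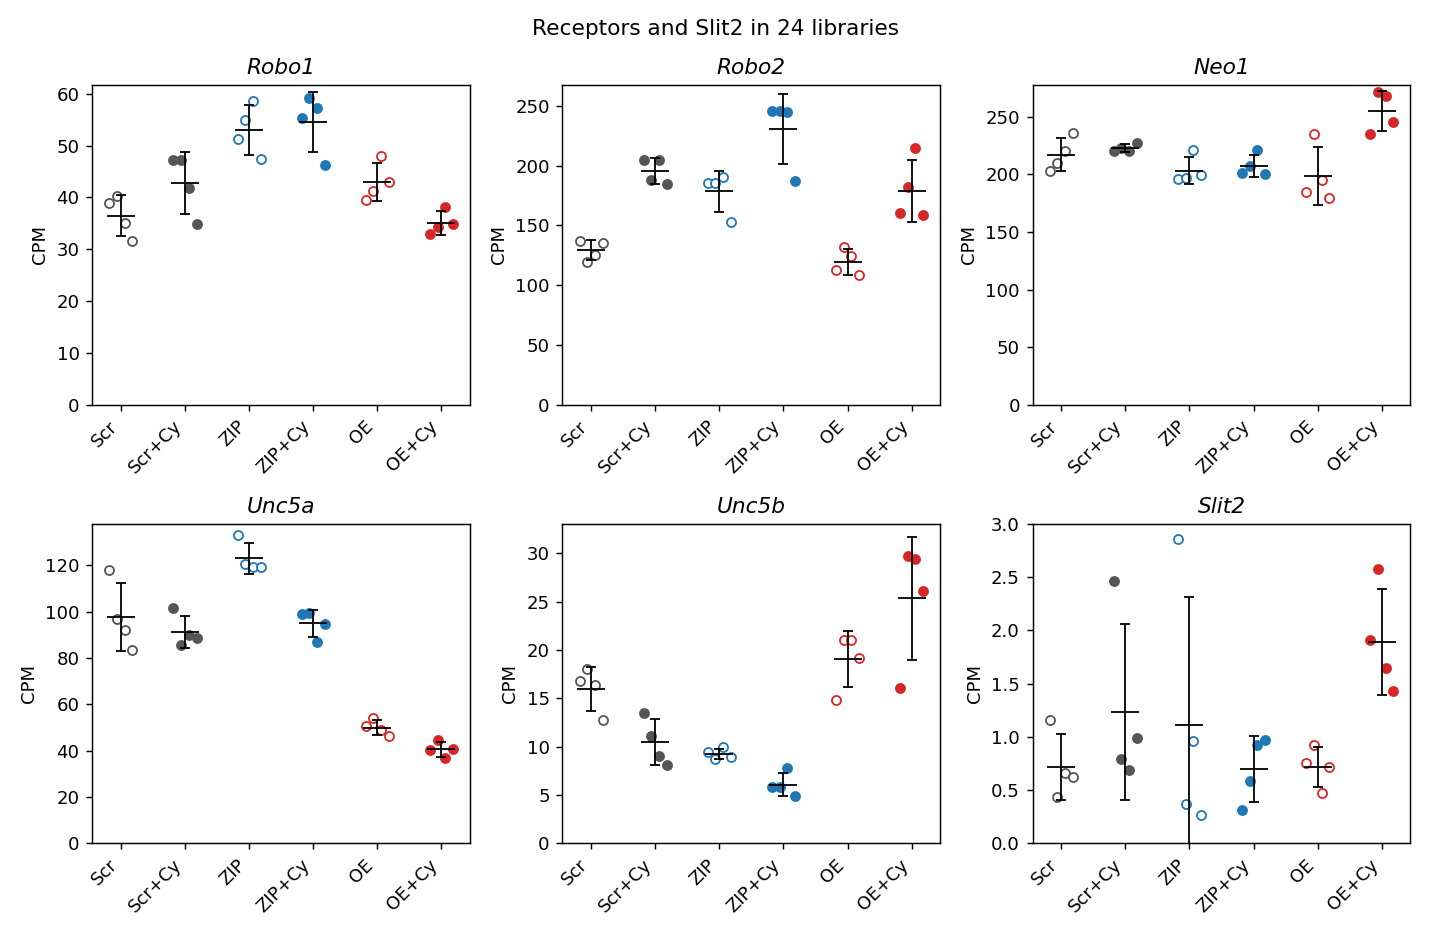
CPM of 5 receptors and of Slit2 in the 24 libraries of 6 groups, with open circles for untreated and filled circles for cytokine-treated libraries, and bars for the mean ± SD. Neo1 changed least, Unc5a was lowest in OE and OE+Cy, and Unc5b was lowest in ZIP+Cy and highest in OE+Cy.

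The Unc5 receptors did not change alike. Unc5a (chr13:54949411-55006018), which overlaps Hk3 on the opposite strand, had 118, 96.9, 92.1 and 83.5 CPM in Scr and 50.6, 54.2, 48.7 and 46.3 CPM in OE. These groups did not overlap, and the OE mean of 50.0 ± 3.34 CPM was 51.2% of the Scr mean of 97.6 ± 14.7 CPM. In OE+Cy (40.6 ± 3.19 CPM), it was 44.4% of the level in Scr+Cy (91.3 ± 7.00 CPM). Both are descriptions. Hk3 was at most 0.652 CPM in any library. In ZIP, Unc5a had 119 to 133 CPM, above all Scr libraries but under the fold limit (log2 fold change 0.33 ± 0.08, adjusted p = 0.00329). With cytokines it was lower in ZIP (log2 fold change −0.37 ± 0.08, adjusted p = 0.00143) and in OE (−0.30 ± 0.09, adjusted p = 0.00540), without overlap and under the fold limit in each. In Scr the log2 fold change was −0.10 (adjusted p = 0.485). The interaction tests showed no difference from the Scr response (adjusted p = 0.714 for ZIP and 0.252 for OE).

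Unc5b (chr10:60762594-60831581) was lower in ZIP than in Scr with and without cytokines. Untreated, Scr had 16.8, 18.03, 16.3 and 12.8 CPM and ZIP had 9.40, 8.75, 9.92 and 8.94 CPM. The groups did not overlap (log2 fold change −0.79 ± 0.18, adjusted p = 0.00137). The treated groups, which are other libraries of the same lines, also did not overlap (8.14 to 13.5 CPM in Scr+Cy and 4.90 to 7.78 CPM in ZIP+Cy), with a log2 fold change of −0.79 ± 0.19 (adjusted p = 0.00243).

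Cytokines lowered Unc5b in Scr and ZIP cells but not in OE cells. The log2 fold change was −0.61 ± 0.18 in Scr (adjusted p = 0.0154) and −0.61 ± 0.19 in ZIP (adjusted p = 0.0183). Both values were close to the fold limit. The first was under it without Scr replicate 2, Scr+Cy replicate 3 or Scr+Cy replicate 4 (−0.55, −0.55 and −0.51), and the second without ZIP replicate 3 or ZIP+Cy replicate 4 (−0.58 and −0.52). In OE, Unc5b went from 14.9, 21.003, 21.08 and 19.2 CPM to 16.1, 29.7, 29.5 and 26.1 CPM (log2 fold change 0.41 ± 0.17, adjusted p = 0.0495, under the fold limit), with replicate 1 the lowest in both groups. The difference between the OE and Scr responses was 1.02 ± 0.24 on the log2 scale (adjusted p = 0.00393). Between ZIP and Scr it was 0.00 (95% interval −0.57 to 0.58). As a description, Unc5b in OE+Cy (25.3 ± 6.39 CPM) was 2.42 times the level in Scr+Cy (10.5 ± 2.38 CPM).

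**Figure D3:**
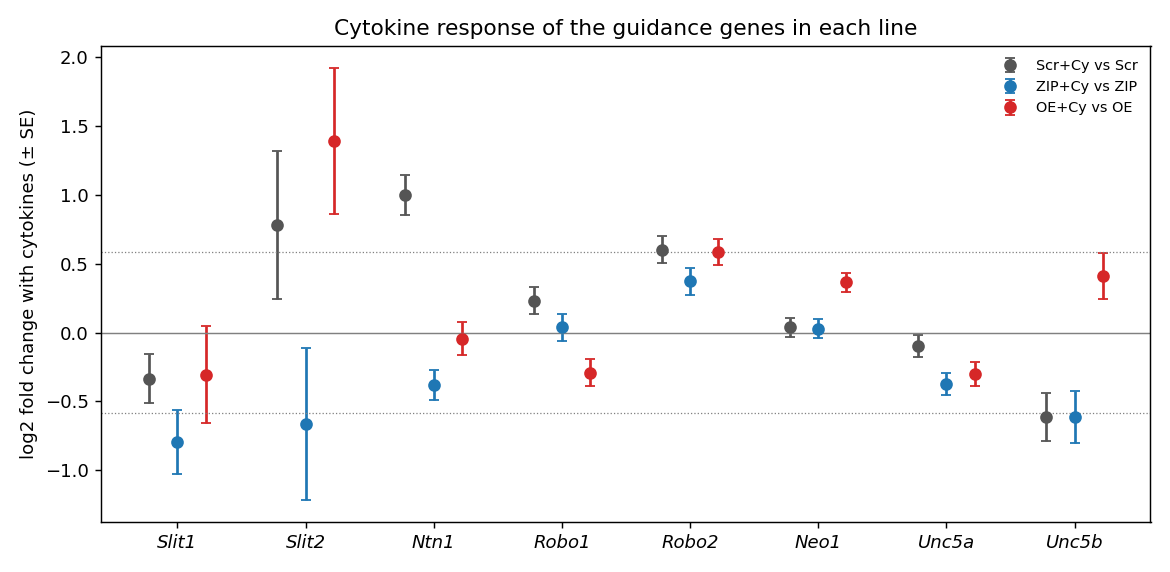
Log2 fold change with cytokines (± SE) of 8 of the 9 genes in Scr, ZIP and OE cells, with dotted lines at a fold change of 1.5 in either direction. Ntn1 was 1.00 in Scr, −0.38 in ZIP and −0.04 in OE, and Unc5b was −0.61 in Scr and in ZIP but 0.41 in OE, whereas Robo2 was above 0 in each line.

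Counted over all 9 genes, ZIP against Scr called 1 higher (Ntn1, where 7.97% of all genes were higher) and 2 lower (Unc5b, and Slit1 as a description, where 6.91% were lower), against 14.9% of all genes called in either direction. The groups did not overlap for 6 of the 9, all but Neo1, Slit2 and Slit3, and for 27.2% of all genes. ZIP+Cy against Scr+Cy called 1 higher (Ntn1, with 7.1% of all genes) and 3 lower (Unc5b, Slit3, and Slit1 as a description, with 8.67%), against 15.8% in all, and 3 did not overlap (27.6%). The call of Slit3 was lost without Scr+Cy replicate 1.

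With cytokines, Scr cells had 3 genes called higher (Ntn1, Robo2 and Slit3, with 7.88% of all genes) and 1 lower (Unc5b, with 2.67%), against 10.6% in all, and 3 did not overlap (21.2%). Slit3 is counted here and below as the fit called it, but it is not read as a change. ZIP cells had 0 higher (7.28%) and 2 lower (Slit1 and Unc5b, with 5.21%), against 12.5% in all, and 2 did not overlap (26.2%). In OE cells, 1 was higher (Slit2, with 13% of all genes) and 0 lower (8.02%), against 21% in all, and 5 did not overlap (40.2%). The median log2 fold change of the 9 genes was 0.23 in Scr, −0.38 in ZIP and −0.04 in OE, where that of all genes was 0.00, −0.01 and 0.02. The OE interaction was passed by 2 of the 9 upward (Neo1 and Unc5b, with 9.64% of all genes) and 3 downward (Ntn1, Robo1 and Slit3, with 10.3%), against 20% in all. The ZIP interaction was passed by 0 upward (0.0509%) and by Ntn1 downward (0.00565%).

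OE against Scr, which the choice of genes used, passed the same limits for 1 upward (Ntn1, with 11.3% of all genes) and 2 downward (Slit1 and Unc5a, with 14.4%), where 25.7% of all genes did, and 3 did not overlap (46.5%). OE+Cy against Scr+Cy passed them for 2 upward (Ntn1 and Unc5b, with 13.7%) and 3 downward (Slit1, Slit3 and Unc5a, with 14.8%), where 28.5% did, and 5 did not overlap (46.2%).

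Without cytokines, the level per kilobase put the genes in a different order in each line. In Scr, Slit1 (81.4 ± 3.34 CPM per kb) was followed by Neo1 (29.4 ± 1.92) and Unc5a (24.4 ± 3.68), which overlapped within their SD, then by Robo2 (15.0 ± 0.982), Robo1 (4.82 ± 0.521), Unc5b (2.72 ± 0.382) and Ntn1 (0.409 ± 0.0685). In ZIP, Unc5a (30.8 ± 1.69) and Neo1 (27.6 ± 1.64) overlapped at the top and Robo2 followed (20.8 ± 1.98). Ntn1 (8.72 ± 1.43) and Robo1 (7.01 ± 0.646) came next, and Slit1 (1.63 ± 0.511) was level with Unc5b (1.58 ± 0.0888). In OE, Neo1 (26.9 ± 3.39) led, Robo2 (13.9 ± 1.24) and Unc5a (12.5 ± 0.836) overlapped, and Slit1 was the seventh at 0.294 ± 0.108. The Scr cells thus held more Slit ligand than Robo receptor reads per kilobase (81.4 against 19.9 ± 0.874 for Robo1 and Robo2 together), and ZIP and OE cells held less (1.74 against 27.8 ± 2.55, and 0.373 against 19.6 ± 1.43).

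**Figure D4:**
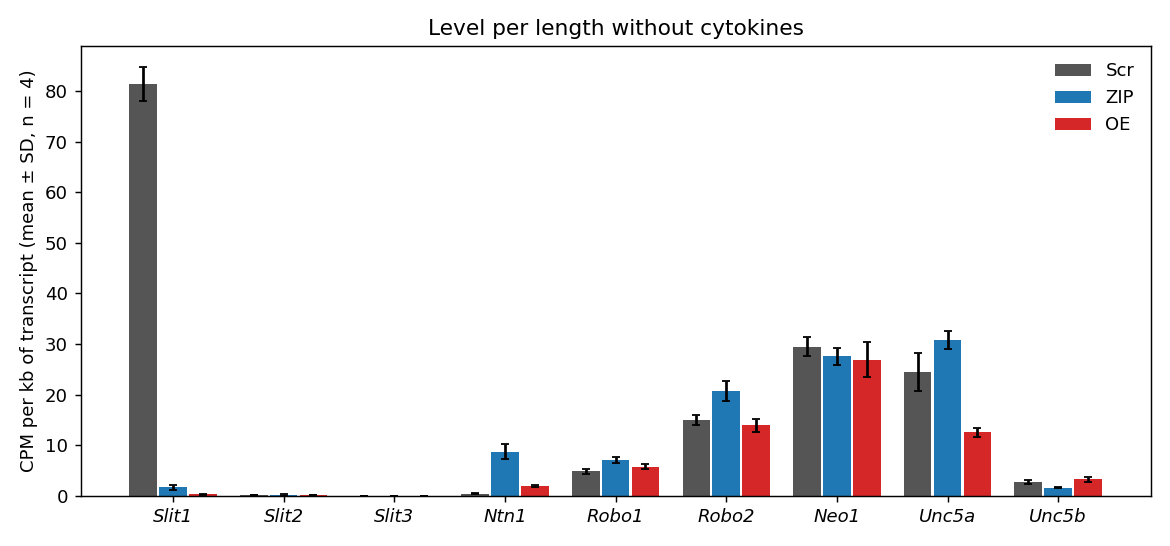
Mean CPM per kb of the longest coding transcript (± SD, n = 4) of the 9 genes in untreated Scr, ZIP and OE cells. Slit1 was the highest bar in Scr at 81.4 and stood at 1.63 in ZIP and 0.294 in OE. Unc5a was lowest in OE (12.5) and Unc5b lowest in ZIP (1.58).

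The genes around Slit1 were lower in the same lines, but by far less in their median. Within 5 Mb, 100 genes had a mean of at least 1 CPM. Their median log2 fold change was −0.41 in ZIP against Scr, with 89% of them below 0, and −0.38 in OE, with 85% below 0. The median of all genes was −0.01 and 0.00. Single neighbors in OE ranged from −6.04 (Crtac1) to 7.14 (Lgi1), and Lbx1 (−5.12), Golga7b (−4.92) and Frat1 (−4.11) were also far lower. The nearest expressed neighbors, Lcor at 4097 bases and Arhgap19 at 22732 bases, had log2 fold changes of −0.32 and −0.63 in ZIP and of −0.03 and −0.65 in OE. Around Unc5a, the 70 genes within 5 Mb had a median of −0.85 in OE, with 95.7% below 0, against −0.97 for Unc5a itself. In ZIP, their median was 0.04. Around the other 7 genes, medians lay between −0.12 and 0.23 in both lines. The part of these regions in the levels of Slit1 and Unc5a was not tested.

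**Figure D5:**
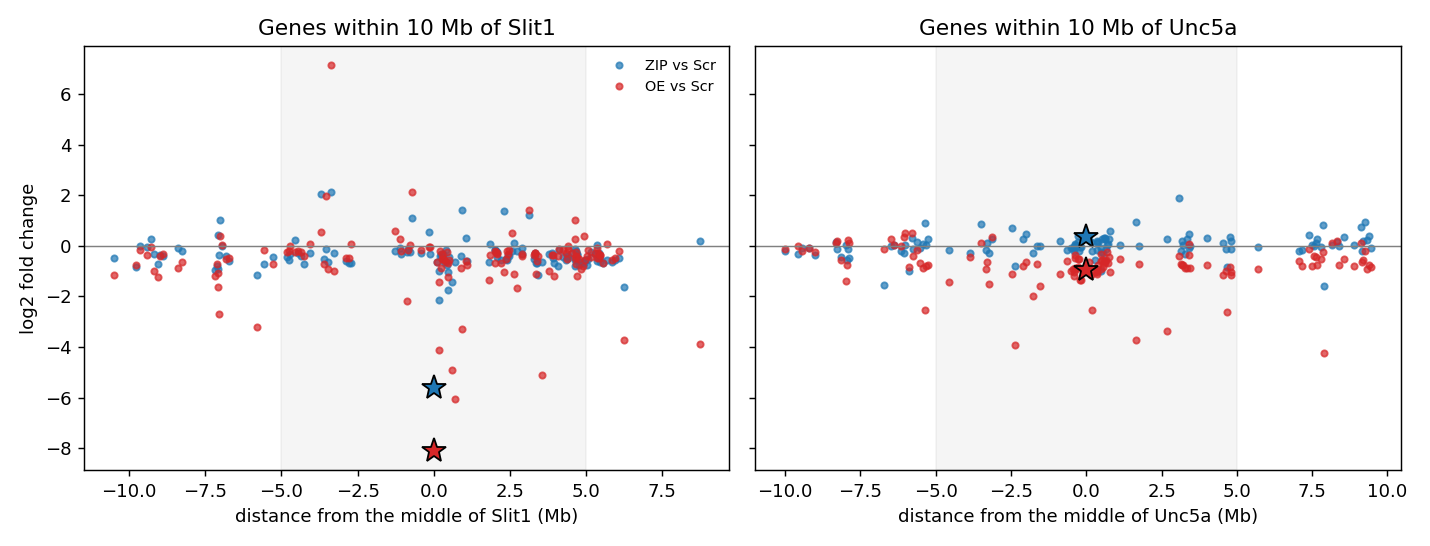
Log2 fold change against Scr of each gene with a mean of at least 1 CPM within 10 Mb of Slit1 and of Unc5a, by distance between gene middles in Mb, with ZIP in blue, OE in red, the named gene as a star and the 5 Mb window shaded. Slit1 lies below all its neighbors in both lines, whereas Unc5a in OE lies at the level of its neighbors.

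Over the 24 libraries, the genes closest to Slit1 in their pattern of log2 CPM were Lrch2 on chromosome X (root mean square difference 0.76), Ablim1 on chromosome 19 (0.90) and Prdm16 on chromosome 4 (1.33), out of 12669 genes compared. Their mean levels in Scr, ZIP and OE were 21.3, 0.630 and 0.104 CPM for Lrch2, 16.1, 0.639 and 0.0863 CPM for Ablim1 and 8.54, 0.954 and 0.126 CPM for Prdm16. Closest to Ntn1 was Rhox5 (0.42), at 0.307, 3.90 and 1.13 CPM. The genes closest to Unc5a were Sfxn1 and Rab24 (0.13 and 0.14), both on chromosome 13. Neo1 was closest to Bod1l (0.08), Robo1 to Uvssa (0.14), Robo2 to Syt1 (0.14), Unc5b to Arnt2 (0.32) and Slit2 to Dmd (0.61).

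Of the other genes of these pathways (ligands, co-receptors and signaling proteins of the Slit-Robo, netrin, neogenin and Unc5 systems), 65 were in the table. In ZIP against Scr, 10 were higher and 8 lower, that is 27.7% against 14.9% of all genes. Their median log2 fold change was −0.07, against 0.00 for all genes. Ablim1, an actin-binding relative of the worm netrin pathway gene unc-115, fell from 16.1 ± 1.29 to 0.639 ± 0.145 CPM (change of −4.64 ± 0.20 on the log2 scale, adjusted p = 1.61e-14). Srgap1, an intracellular binding partner of Robo1, fell from 8.71 ± 2.13 to 0.835 ± 0.255 CPM (−3.38 ± 0.21, adjusted p = 1.26e-11). Rgma, a ligand of neogenin, fell from 1.28 ± 0.473 to 0.212 ± 0.0648 CPM (−2.57 ± 0.56, adjusted p = 9.62e-04). Ntng2, a membrane-anchored netrin relative that does not bind the netrin-1 receptors, rose from 0.179 ± 0.118 to 1.98 ± 0.268 CPM (3.42 ± 0.38, adjusted p = 1.36e-07). In ZIP+Cy against Scr+Cy, 9 were higher and 11 lower (30.8% against 15.8%). Among them, Srgap3, a relative of Srgap1, rose from 15.9 ± 3.08 to 44.96 ± 9.66 CPM (2.83-fold, adjusted p = 3.53e-06).

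OE against Scr passed the limits for 6 of the 65 upward and 17 downward (35.4% against 25.7% of all genes). In OE, Ablim1 was at 0.0863 ± 0.0270 CPM (log2 fold change −7.46), Srgap3 at 0.964 ± 0.205 against 14.4 ± 1.07 CPM in Scr (−3.90), and Flrt1, a membrane protein of a family that binds Unc5 receptors, at 6.81 ± 0.836 against 40.9 ± 2.44 CPM (−2.59). Srgap1 was at 18.6 ± 2.83 CPM in OE and so on the other side of Scr from ZIP. Dcc, the attractive netrin receptor, was near the detection limit in Scr (0.185 ± 0.0696 CPM, at most 9 reads) and ZIP (0.0997 ± 0.0795 CPM), and stood at 1.26 ± 0.220 CPM in OE. Robo3 was at most 0.462 CPM in any library but those of OE+Cy, where it had 0.316 to 1.42 CPM, and Robo4, the endothelial member, had at most 3 reads in any library. Netrin-4 (Ntn4) was not among the 17696 genes, so no level is given for it.

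With cytokines, 4 of the 65 were higher and 3 lower in Scr (10.8% against 10.6% of all genes), 2 and 5 in ZIP (10.8% against 12.5%) and 14 and 3 in OE (26.2% against 21%). Trim9, a brain-enriched ubiquitin ligase that binds Dcc, fell in each line. It went from 26.3 ± 2.90 to 16.6 ± 1.64 CPM in Scr (log2 fold change −0.66 ± 0.13, adjusted p = 5.22e-04), from 23.7 ± 2.84 to 15.0 ± 2.42 CPM in ZIP (−0.66 ± 0.13, adjusted p = 4.77e-04) and from 31.2 to 12.7 CPM in OE (−1.29 ± 0.13, adjusted p = 1.93e-08). Dscam, another netrin receptor, fell in Scr from 3.68 ± 0.402 to 2.04 ± 0.376 CPM (−0.84 ± 0.18, adjusted p = 0.00109) and in ZIP from 7.58 ± 0.453 to 3.15 ± 0.465 CPM (−1.26 ± 0.17, adjusted p = 3.17e-06). Unc5d, the fourth Unc5 receptor, rose in ZIP from 5.16 ± 1.52 to 9.04 ± 1.87 CPM (0.81 ± 0.20, adjusted p = 0.00449). In OE, Srgap3 rose from 0.964 ± 0.205 to 3.14 ± 1.57 CPM (1.72 ± 0.32, adjusted p = 1.15e-04). Src, a kinase downstream of Dcc, rose from 12.6 ± 0.794 to 26.5 ± 3.85 CPM (1.07 ± 0.11, adjusted p = 1.47e-08). Maged1, which binds Unc5a and favors cell death, fell from 2086 ± 11.1 to 999.6 ± 143.7 CPM (−1.06 ± 0.09, adjusted p = 5.47e-10). The interaction between OE and Scr was passed by 17 of the 65 upward and 3 downward (30.8% against 20% of all genes), and that between ZIP and Scr by none in edgeR.

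With cytokines, 12 of 31 semaphorin, plexin and neuropilin genes were higher in OE and 2 lower (45.2%, against 26.2% of the 65 pathway genes and 21% of all genes). Nrp2, a semaphorin co-receptor, rose from 0.659 ± 0.0464 to 44.2 ± 11.8 CPM there (log2 fold change 6.06 ± 0.30, adjusted p = 5.41e-14). Nrp2 was also called higher after treatment in the other lines, 5.10-fold in Scr and 5.90-fold in ZIP. These calls had adjusted p values of 5.18e-06 and 4.43e-08. The Nrp2 response in OE exceeded that in Scr in the interaction test (3.71 log2 units, adjusted p = 1.55e-05). Of the 31 genes, 5 were higher and 1 lower in Scr (19.4%, against 10.6% of all genes). In ZIP, 7 were higher and 5 lower (38.7%, against 12.5%). Of 20 ephrin and Eph genes, 2 were higher and 3 lower in OE (25%). The shares were not tested against each other.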

How the data were processed

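The authors deposited expected counts per gene, of which 30.3% were not whole and which were rounded here. The authors also deposited a normalized signal, the same counts over 1 factor per library, which was not used. The submitters' processing notes name FastQC, STAR 2.7.8a, Partek 11.0.24.0204, DESeq2 and mm10. How strand was used in counting is not given in the sources used here, so overlapping genes cannot be told apart.

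All 17696 genes entered 1 fit of 6 group means in edgeR 4.0.16 (R 4.3.3, TMM scaling, glmQLFit and glmQLFTest), tested on simulated data. Interactions, which compare the response to cytokines between lines, were called at an adjusted p under 0.05 with no fold limit. The SE is the log2 fold change over the square root of F. Patterns were compared after a prior count of 2, as log2 CPM centered per gene. The members, lists and tests were chosen with earlier results of these data known. From the pathway lists, up to 4 genes per comparison were named, those called with an adjusted p under 0.05 and over 1 CPM in either group, by size of change. Dcc, Ntn4, Robo3 and Robo4 were named in any case, and further values of these genes after they were seen. Unless a block is named, the tests did not use replicate numbers, which entered only as the block among the alternatives. Libraries were judged to be paired by number in 5 of 7 comparisons. There, deviations from group means correlated by 0.141 to 0.634 for every number. They were not judged so in OE against Scr (−0.129 to 0.295) or OE+Cy against Scr+Cy (0.000631 to 0.165). Alternatives were DESeq2 1.42.0, its size factors, filterByExpr, only the compared groups, the replicate block, another call rule and leaving out libraries. Limits of 3 reads cover counting error only.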

Additional observations from a re-analysis of the deposited data

Results flagged for a closer look

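Of 64 group values of 4 libraries each, 10 had a library far from the other 3, where chance alone gives about 5%. Slit3 in Scr+Cy was highest in replicate 1 (1.02 CPM). Robo2 was lowest in replicate 4 in both ZIP (153 CPM) and ZIP+Cy (187 CPM). Neo1 in ZIP was highest in replicate 3 (221 CPM), and Unc5a in ZIP in replicate 1 (133 CPM). Summed fibroblast markers were highest in replicate 1 of Scr (19.2 CPM), ZIP (54.8 CPM) and Scr+Cy (58.7 CPM), and summed Schwann cell markers in replicate 1 of ZIP (111 CPM) and Scr+Cy (155 CPM).

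In the edgeR interaction test, the response of Ntn1 to cytokines differed from Scr by −1.38 in ZIP (adjusted p = 8.96e-04) and by −1.04 in OE (adjusted p = 3.83e-04) on the log2 scale. In OE the difference was also 1.02 for Unc5b (adjusted p = 0.00393) and −0.52 for Robo1 (adjusted p = 0.00975). For Neo1 it was 0.33 (adjusted p = 0.0222), which was not past the threshold in 5 fits without 1 library or with only the compared groups. The fit also gave −9.63 for Slit3 (adjusted p = 0.0180), which is not read as a change, since 0 reads were found in Scr and OE+Cy and 1 library held 33 of the reads in Scr+Cy.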

How the results depend on the processing

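Over 81 pairs of a gene and a comparison, 1266 of 1350 values under alternatives kept their direction and their side of the threshold, as did 56 pairs in all of theirs. With DESeq2, with its size factors in edgeR and with the low-count filter, 2 of the 9 genes were called with cytokines in OE instead of 1, because Robo2 (0.59) passed the fold limit. For the ZIP interaction, an unadjusted p under 0.05 gave 3 of the 9 genes and 1137 in all, DESeq2 41 in all and the replicate block 45, against 10. For the OE interaction, an unadjusted p gave 5601 genes against 3537. The replicate block changed no call of the 9 genes, although OE against Scr and OE+Cy against Scr+Cy are not taken as paired. Leaving out 1 library at a time, 2 to 4 genes were called with cytokines in Scr, 1 to 2 in ZIP and 0 to 2 in OE, and the cause was not tested.

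Only values that were not called changed sign. Without the 3 libraries with fibroblast markers (an alternative chosen after seeing the data), Slit2 was −0.069 in ZIP against Scr, 0.34 in OE against Scr and 0.37 with cytokines in ZIP, where Slit3 was 0.48. Slit2 in OE against Scr, 0.00 in edgeR, was 0.011 with DESeq2, 0.0077 with its size factors, 0.00040 with the low-count filter and 0.065 with the block. In the ZIP interaction, Neo1 was 0.0090 with only the compared groups, and Unc5b was −0.0028 with the filter and −0.014 with the block. Leaving out 1 library, Slit2 ranged from −0.42 to 0.96 in ZIP against Scr, from −0.19 to 0.34 in OE against Scr and from −0.99 to 0.37 with cytokines in ZIP. With cytokines, Unc5a ranged from −0.17 to 0.0074 in Scr and Ntn1 from −0.093 to 0.014 in OE. In ZIP, Slit3 ranged from −0.96 to 0.48, Robo1 from −0.012 to 0.11 and Neo1 from −0.0023 to 0.067. In the ZIP interaction, Neo1 ranged from −0.050 to 0.045 and Unc5b from −0.14 to 0.15, and in that of OE, Slit1 ranged from −0.18 to 0.22 and Robo2 from −0.13 to 0.059. The scaling moved the median of all genes by at most 0.03. At 26657795 reads or more per library, Slit3 and Robo4 were too low for a change to be detectable. With windows of 2 and 10 Mb in place of 5 Mb, the medians around Slit1 were −0.33 and −0.41 in ZIP and −0.53 and −0.41 in OE against Scr, and around Unc5a −0.83 and −0.73 in OE.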
